A study of Mus musculus with 186 samples.

Results

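The cytosolic ribosomal protein genes were followed in single inner cells of the mouse blastocyst. The members were taken by gene symbol: Rps or Rpl with a number, including the forms ending in a or x, and the 4 symbols Rplp0, Rplp1, Rplp2 and Rpsa. Pseudogene rows and the S6 kinase genes were left out. A member also had to reach a TPM (transcripts per 1000000, the authors' measure of abundance) of 1 or more in 25% of the cells of at least 1 group. All 76 symbols of the table that fitted the name rule passed this filter, out of 55421 gene rows. Of these, 30 encode proteins of the small (40S) subunit and 46 proteins of the large (60S) subunit.

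RNA of 169 single cells was analysed, from CD-1 mouse embryos of natural matings. The embryos carried no genetic change, and the outer cells had been removed by immunosurgery, in which antibody and complement lyse the cells they can reach. Fresh embryos of the embryonic stages E3.25 (19 cells), E3.75 (22 cells) and E4.0 (14 cells), named by days after mating, received no treatment and came from 2 collection dates each. Morulae of E2.75 were cultured in KSOM medium for 16 h or 24 h with the PI3K inhibitor LY294002 at 10 µM (LY) or with DMSO, its solvent. There were 31 cells in 16 h DMSO, 31 in 16 h LY, 28 in 24 h DMSO and 24 in 24 h LY, from 3 dates each. The cells of a group that share a date are called an experiment below. Experiments pooled litters, and LY294002 is known to act on other kinases as well, mTOR among them. All 16 h dates are later than the 24 h and fresh dates, so culture time and date cannot be told apart.

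Each ribosome holds 1 copy of nearly every ribosomal protein, so cells make these proteins in matched amounts. Their mRNAs are among the most abundant of a growing cell, and most start with a C followed by a run of pyrimidines, the terminal oligopyrimidine (TOP) tract. Signalling through PI3K (phosphoinositide 3-kinase), AKT and mTORC1 is known to control the translation of TOP mRNAs, through the binding protein LARP1, and to phosphorylate the small-subunit protein S6 through the S6 kinases. The measurements here are mRNA abundances and say nothing of that translation or phosphorylation. In abundances scaled to a fixed total, and with the spike-in rows of the table not used, less RNA per cell cannot be told apart from more RNA of other genes.

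Annotated start sites of some members show such a run. The RefSeq promoter table (GRCm38.p6) held 56 of the 76 members by symbol. These 56 had 66 annotated starts, and for every gene with several starts the one with the longest run was taken. At that start, 13 of the 56 (23.2%) have a C followed by at least 4 bases that are each C or T on the gene's strand. Among other genes it was 800 of 26969 (2.97%). The 6 windows below run from 10 bases before the start to the first 20 transcribed bases, and capitals mark the run of C and T from the start. Rps6 encodes the S6 kinase substrate, Rps15a, Rps27 and Rpl35 were among the members whose level varied between experiments, and Rpl15 and Rps10 among the steadier ones.
Rps6, chr4:86857348-86857377, minus strand: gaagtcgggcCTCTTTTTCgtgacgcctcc
Rps15a, chr7:118116128-118116157, minus strand: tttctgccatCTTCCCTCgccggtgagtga
Rps27, chr3:90213629-90213658, minus strand: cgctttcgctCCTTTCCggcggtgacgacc
Rpl35, chr2:39005112-39005141, minus strand: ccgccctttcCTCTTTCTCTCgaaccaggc
Rpl15, chr14:18270967-18270996, minus strand: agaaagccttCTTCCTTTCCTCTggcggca
Rps10, chr17:27635225-27635254, minus strand: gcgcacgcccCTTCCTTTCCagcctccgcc
The runs of the 13 members were 5 bases (Rplp2 and Rps21) to 13 bases (Rpl15) long. A match is a description of these letters at a chosen start and need not be a TOP tract. Annotated starts can also lie some bases away from the start a cell uses, so a member with no match here may still carry one. No window was read for the other 20 members, among them Rpl17, Rpl21, Rpl23a, Rpl29, Rpl36, Rpl7, Rplp1, Rps27a and Rps29.

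The depth of each cell is unknown, because TPM keeps none. Between 3806 and 10220 genes (median 6584) reached a TPM of 1 in a cell, and mitochondrially encoded genes took 0.362% to 32.5% of TPM. Over the experiments the mean log2(TPM + 1) of the epiblast marker list ranged from 1.60 to 4.34, of the primitive endoderm list from 0.803 to 4.16 and of the trophectoderm (outer cell) list from 0.818 to 3.49. Its highest trophectoderm value was in 16 h DMSO experiment 1, which has 3 cells. The defining trophectoderm gene Cdx2 had a mean log2(TPM + 1) of at most 1.39 in any experiment, and Nanog, which marks epiblast and its precursors, of 2.98 to 9.13. Experiments 2 of E3.25 and 1 of 24 h LY stood apart in the members' levels. Median differences over all members that rest on them are therefore given with and without them. Values of subsets of the members, and of most single members, are given only with them.

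The members took a large share of each cell's mRNA. They held 28.3% of TPM in the median cell, 9.63% in the lowest and 48.8% in the highest. At least 71 of the 76 members reached a TPM of 1 in every cell, and all 76 did in 147 of 169 cells. In total they were 28.6% of TPM, and the 5 most abundant of them 5.53%.

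By experiment, the members' share was 30.0% and 16.9% at E3.25, 28.03% and 30.1% at E3.75, and 25.7% and 24.7% at E4.0. In culture it was 23.4%, 27.4% and 33.8% in 16 h DMSO and 27.3%, 34.5% and 37.02% in 16 h LY. It was 33.8%, 30.997% and 27.5% in 24 h DMSO and 23.1%, 28.1% and 30.2% in 24 h LY. The 16.9% of E3.25 experiment 2 was the lowest and the 37.02% of 16 h LY experiment 3 the highest, and the LY and DMSO shares overlapped at both times. In group means, 16 h LY was at 32.9% ± 5.06 (SD, n = 3) against 28.2% ± 5.25 in 16 h DMSO (two-sided exact permutation p = 0.3, adjusted p = 0.762 over 8 comparisons). At 24 h the means were 27.1% ± 3.63 with LY and 30.8% ± 3.16 with DMSO (exact permutation p = 0.3, adjusted p = 0.762). With 3 experiments against 3 the smallest p possible is 0.1, so no share could reach 0.05. Paired by date, LY minus DMSO was 3.83, 7.08 and 3.18 percentage points at 16 h, positive on every date, and -10.7, -2.89 and 2.65 points at 24 h.

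**Figure D1:**
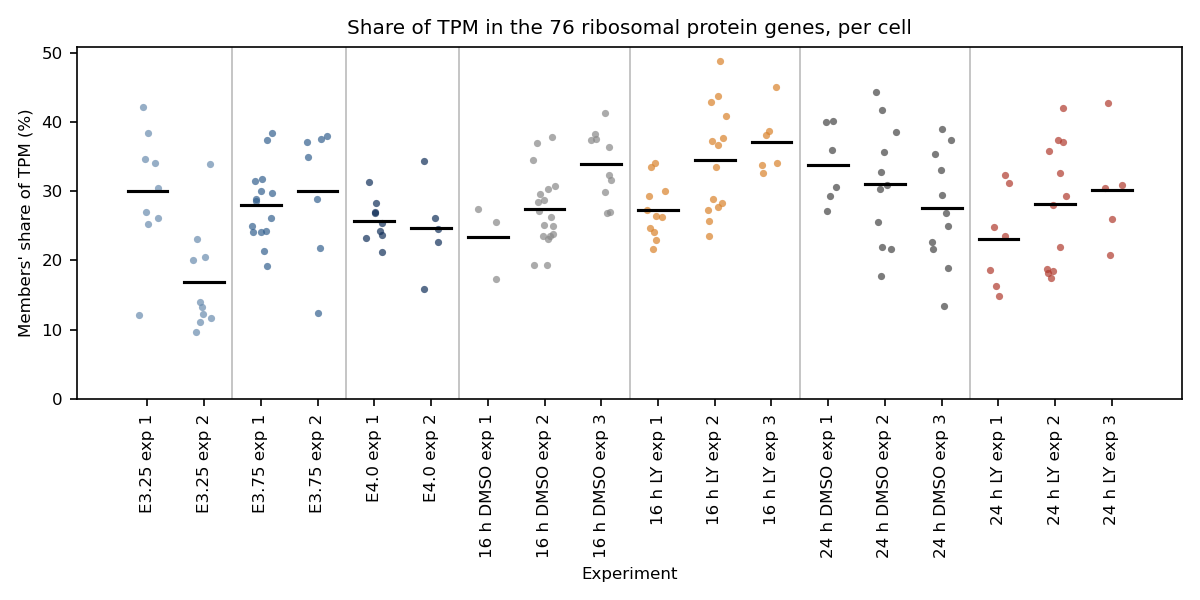
Share of TPM in the 76 ribosomal protein genes (y axis, %) for each of 169 cells (points) in the 18 experiments (x axis), with a black bar at the mean of an experiment. Cells of 1 experiment spread widely, E3.25 experiment 2 has the lowest mean (16.9%) and 16 h LY experiment 3 the highest (37.02%).

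The 60S members held more TPM than the 40S members in every experiment. The mean per-cell ratio of 60S to 40S TPM ranged from 1.32 to 1.79 in 16 experiments, with values of 2.14 in E3.25 experiment 2 and 2.52 in 24 h LY experiment 1. The same 2 experiments had the lowest median level over the members, with a log2(TPM + 1) of 9.57 and 10.0 against 10.7 to 11.8 in the others.

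The members did not vary alike. Over the 18 experiments the SD of a member's mean log2(TPM + 1) ranged from 0.24 (Rpl23a) to 2.44 (Rpl39), with a median of 0.74 against 0.73 over all other genes tested. There were 18 members with an SD below 0.5, 47 between 0.5 and 1.5 and 11 above 1.5. The steadiest were Rpl23a, a docking site for factors at the exit tunnel, Rpl15, Rpl6, Rpl7a and Rps3, which sits where mRNA enters the small subunit. Among the most variable were Rpl39, a very short protein of the exit tunnel, Rpl36a, Rps15a, Rps27, Rpl7, Rps24, Rps25, Rpl5, Rpl37 and Rpl37a. These members belong to both subunits. Within a group, the median SD of a member between experiments was 1.17 at E3.25, 0.77 in 24 h LY, 0.54 at E3.75, 0.50 in 24 h DMSO, 0.40 at E4.0, 0.37 in 16 h DMSO and 0.29 in 16 h LY.

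Rps15a, a protein of the small-subunit body, shows the variable pattern. Its log2(TPM + 1) was 7.85 and 6.73 at E3.25, 10.8 and 6.22 at E3.75 and 11.8 and 8.02 at E4.0. In 16 h DMSO it was 11.7, 12.2 and 12.05, and in 16 h LY 12.1, 10.1 and 11.0. In 24 h DMSO it was 6.29, 9.44 and 10.7, and in 24 h LY 5.40, 9.06 and 8.77. All 3 experiments of 16 h DMSO were above all 3 of 24 h DMSO, while experiments of a single fresh stage lay up to several log2 units apart. Within an experiment the cells were spread as far, from 2.51 to 11.8 in 24 h DMSO experiment 1 and from 3.10 to 12.8 in E3.75 experiment 1. Of all cells, pooled over the experiments, 99 had a log2(TPM + 1) of 11 or more for Rps15a, 48 were below 8 and 22 lay between. These bounds were not fixed in advance, and the ranges they set differ in width.

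Rpl23a shows the steady pattern. Its lowest experiment was at 12.1 (24 h DMSO experiment 3) and its highest at 13.1 (E4.0 experiment 2), and 166 of 169 cells were at 11 or more. Rpl39 ranged from 3.24 in 24 h DMSO experiment 1 to 11.5 in 16 h LY experiment 3. Rps27 was at 4.73 in the first and 10.7 in the second of these experiments.

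The members fixed by role fell between these. Rps6 was at 11.1 and 7.97 at E3.25, 11.7 and 8.78 at E3.75, 11.5 and 8.87 at E4.0, and 11.8, 11.7 and 11.6 in 16 h DMSO. Rpsa, which is also known as a laminin receptor, ranged from 10.3 to 12.4 over the experiments, and Rplp0, the base of the stalk that recruits elongation factors, from 10.9 to 12.8. Of the 2 partners of 5S rRNA, both of which can also bind the p53 regulator MDM2, Rpl5 ranged from 6.37 to 11.6 and Rpl11 from 8.54 to 11.8. Rpl10, which joins the large subunit late, ranged from 11.2 to 13.3. The X-linked Rps4x ranged from 7.76 to 12.1, the ubiquitin fusion gene Rps27a from 8.18 to 12.4, and Rpl38, whose loss changes the body plan of mice, from 9.25 to 12.1. Rpl41, which encodes the shortest protein of the set with 25 codons, ranged from 11.1 to 14.0. These levels are for comparing 1 gene between experiments, since the libraries start at the 3′ end and short cDNA was removed before sequencing.

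**Figure D2:**
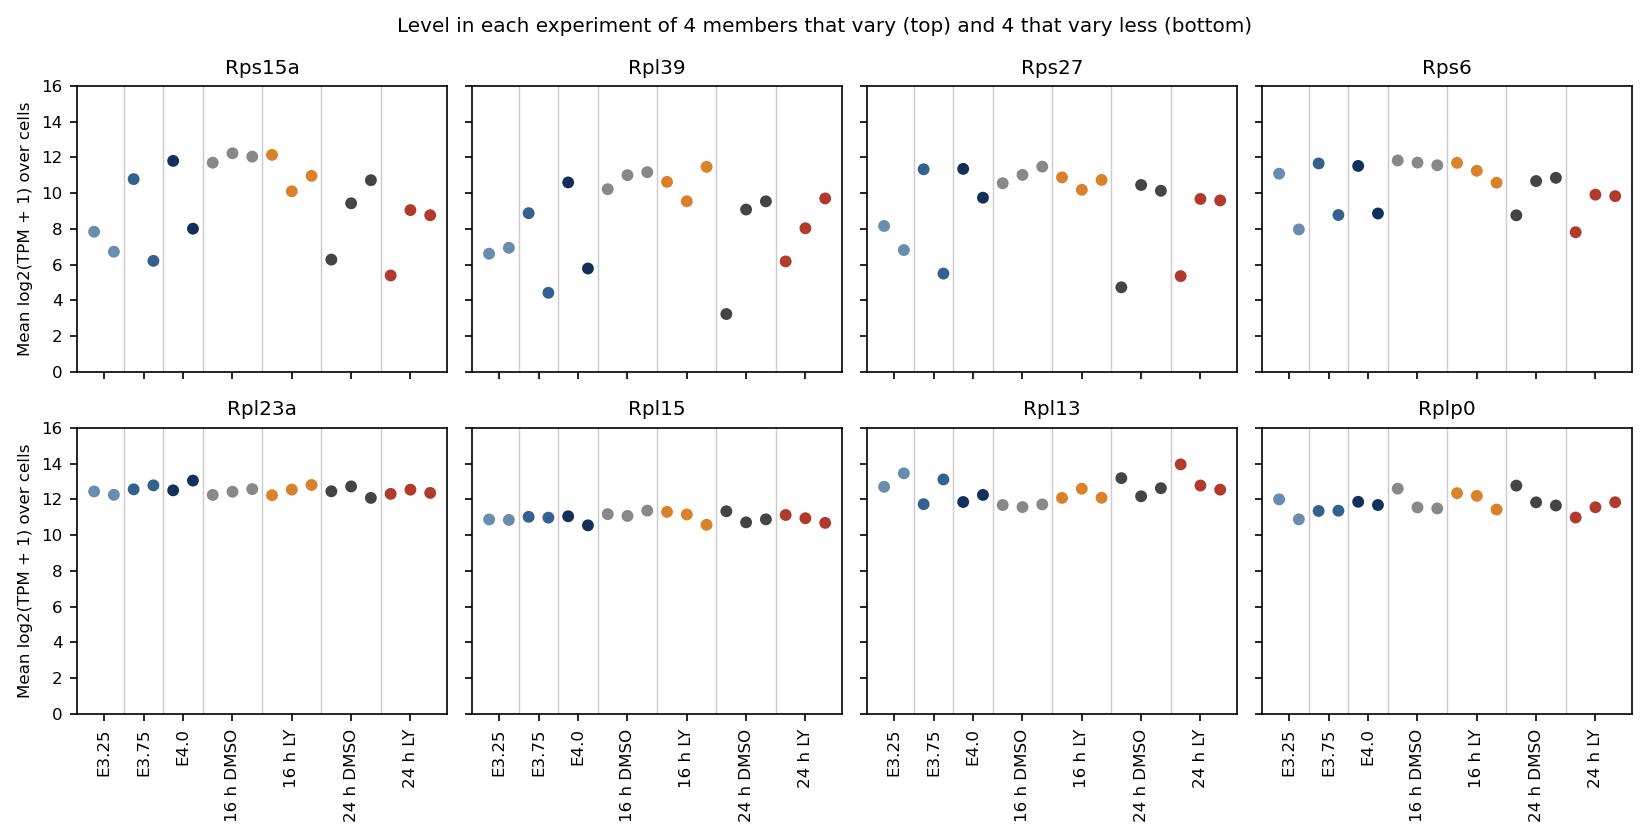
Mean log2(TPM + 1) over the cells of each experiment (points, y axis) for 8 members, by group (x axis). Rps15a, Rpl39, Rps27 and Rps6 (top) spread widely within E3.75, E4.0 and 24 h DMSO, while Rpl23a and Rpl15 (bottom) keep to a narrow band in all groups and Rpl13 and Rplp0 spread less than the top row.

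The members that varied together were identified by correlating each one's 18 experiment means with the mean of the other members, as a description over experiments that share libraries and scaling. The 5 most alike were Rps24 (Pearson r = 0.97), Rpl35a (0.96), Rps12 (0.95), Rps21 (0.95) and Rpl23 (0.95). The 5 least alike were Rpl29 (-0.94), Rpl10a (-0.89), Rpl13 (-0.88), Rps13 (-0.70) and Rpl13a (-0.66). The median over the members was 0.74, and 9 of 76 had a negative r. Rpl13 was at 13.5 in E3.25 experiment 2 and 14.0 in 24 h LY experiment 1, its highest values, where most members were at their lowest, and at 11.6 to 11.7 in 16 h DMSO. Of 11604 other genes, the 5 most like the members' mean were Tomm7 (0.95), a subunit of the mitochondrial import pore, the predicted genes Gm14586 (0.95), Gm15772 (0.95) and Gm2614 (0.95), and the pseudogene Rps6-ps4 (0.94). Reads can be shared between members and their pseudogenes, of which 306 rows named after 61 members held 2.39% of TPM.

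The spread went with the base composition and the length of the coding sequences, properties examined after the levels had been seen. Coding GC, from the GENCODE annotation, ranged from 44.9% (Rpl30) to 61.6% (Rpl36), with a median of 52.8%. Across the 76 members, the Spearman correlation between coding GC and the SD over experiments was -0.46, and between coding length and that SD -0.50. Between coding GC and the mean level it was 0.56. The 19 members of lowest GC (44.9% to 50%) had a median SD of 1.34 and the 19 of highest GC (56.05% to 61.6%) one of 0.55. Genes are not independent replicates, so these values are given with no p.

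Deviations from the members' means were also correlated with coding GC by rank (Spearman) in each experiment, with either sign. This correlation was most negative in 16 h DMSO experiment 2 (-0.72), E3.75 experiment 1 (-0.67) and E4.0 experiment 1 (-0.63), where low-GC members were high. It was most positive in 24 h DMSO experiment 1 (0.65) and E3.75 experiment 2 (0.65), where low-GC members were low. It was near 0 in others, at 0.08 in E4.0 experiment 2, -0.11 in 24 h DMSO experiment 3 and -0.14 in 24 h DMSO experiment 2. The 2 experiments of E3.75 thus had opposite signs within 1 group. Across 9375 other genes the correlation ranged from -0.40 to 0.29 over the experiments, with the same sign as in the members in these 5. Members also differ in coding length, and its correlation with the deviations ranged from -0.73 (16 h LY experiment 3) to 0.57 (E3.25 experiment 2).

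**Figure D3:**
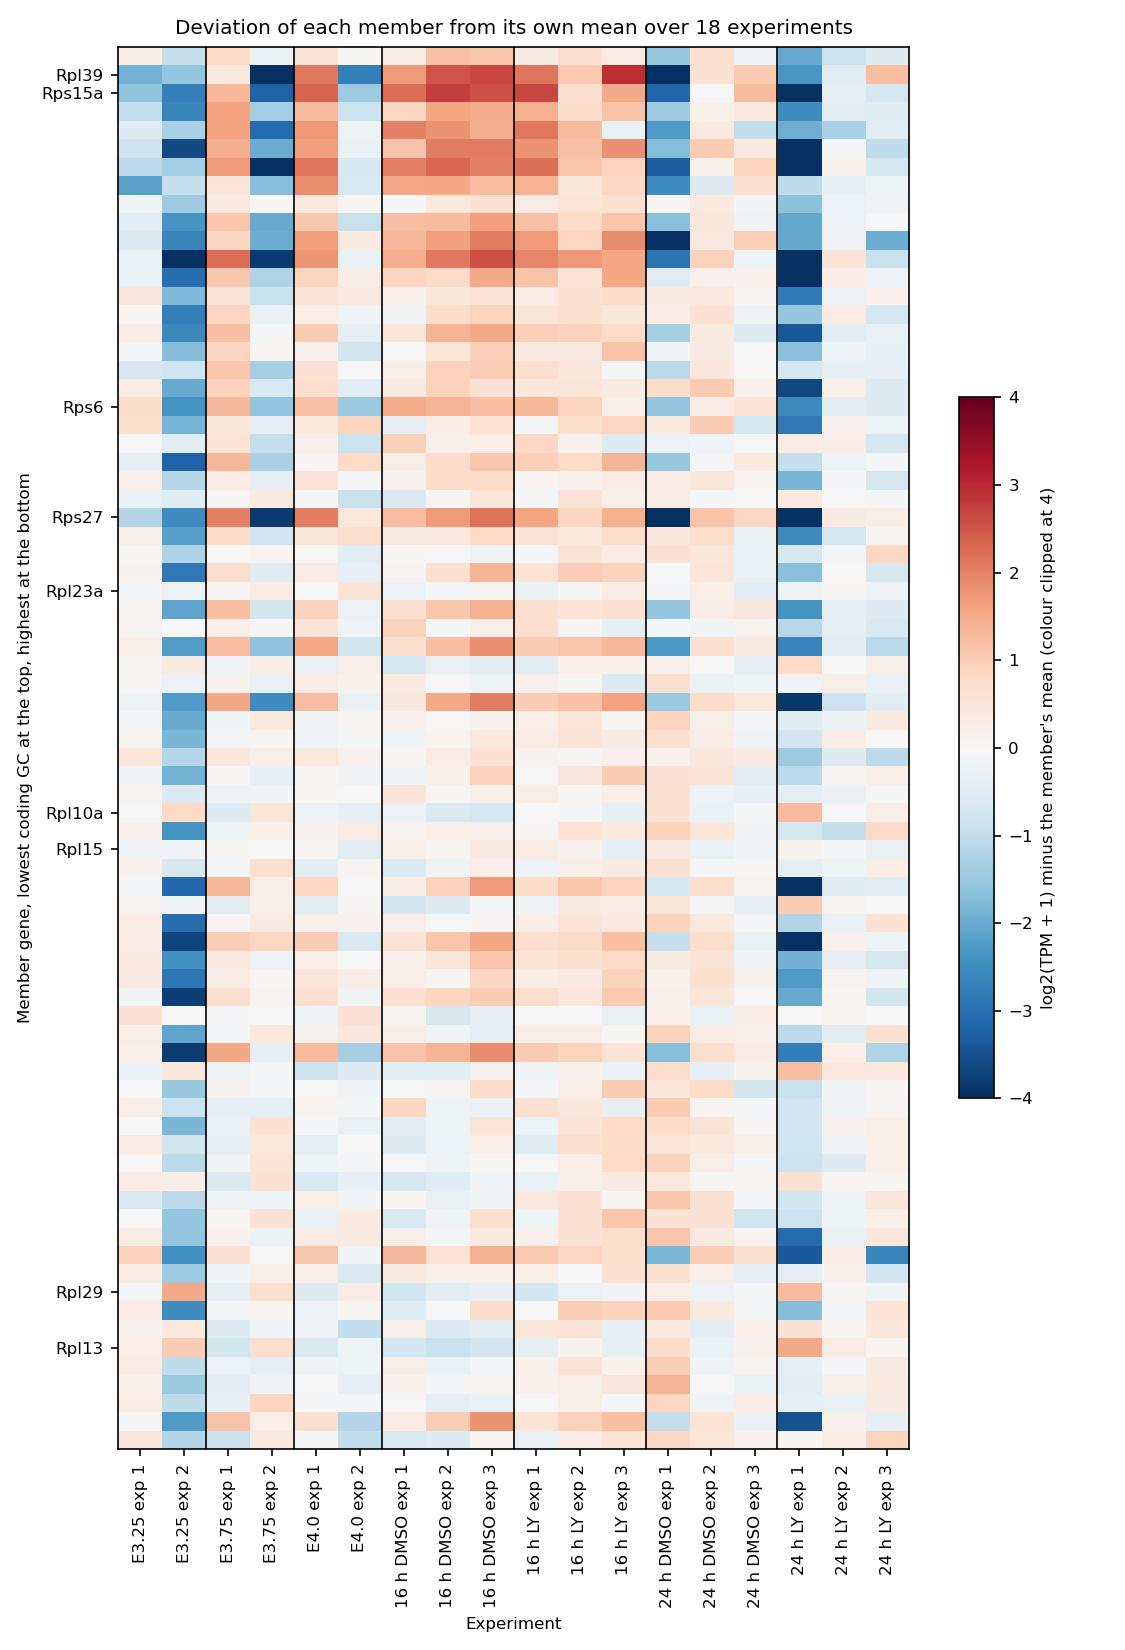
Deviation of each member's mean log2(TPM + 1) from its own mean over the 18 experiments (colour, clipped at 4), with members in order of coding GC from lowest (top) to highest (bottom) and experiments as columns. Low-GC members carry most of the strong colours, high in 16 h DMSO and low in E3.25 experiment 2, E3.75 experiment 2, 24 h DMSO experiment 1 and 24 h LY experiment 1, and Rpl13, Rpl29 and Rpl10a, labelled with 6 other members, have the opposite sign in several of them.

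The difference between the median of the 19 low-GC members and that of the 19 high-GC members was then taken in each experiment. It was -2.45 and -2.75 at E3.25, -0.53 and -3.39 at E3.75, and -0.41 and -1.91 at E4.0. It was -0.66, -0.03 and -0.20 in 16 h DMSO, -0.53, -1.38 and -1.13 in 16 h LY, -3.70, -1.17 and -1.36 in 24 h DMSO, and -3.80, -1.94 and -2.44 in 24 h LY. No 16 h experiment overlapped the range of the 24 h LY experiments, but the fresh stages spanned nearly the whole range.

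In single cells this difference ran from -5.85 to 1.69, and 51 of 169 cells lay below -2, a border set after the values were seen, with 9 cells within 0.5 of it. No cell of 16 h DMSO was below the border, nor of E3.75 experiment 1, E4.0 experiment 1 or 16 h LY experiment 1. Below it were 6 of 7 cells in E3.75 experiment 2, 6 of 7 in 24 h LY experiment 1 and 5 of 6 in 24 h DMSO experiment 1. So were 6 of 9 in E3.25 experiment 1, 7 of 10 in E3.25 experiment 2 and 3 of 5 in 24 h LY experiment 3. In every other experiment with such cells they were a minority. Over all cells the Spearman correlation of the difference was 0.70 with the mitochondrial share of TPM, 0.41 with the number of genes detected and -0.04 with the members' share of TPM. Over the 17 experiments of 5 or more cells, the median correlation within an experiment was 0.60 with the mitochondrial share (range -0.25 to 0.90) and 0.10 with genes detected (-0.70 to 0.72). Within an experiment its median correlation with the epiblast, primitive endoderm and trophectoderm scores was 0.055, -0.11 and -0.12. In some experiments the difference also went with the sequencing run, with a median of -0.45 in 8 cells of run 1 and -5.04 in 3 cells of run 2 in 24 h DMSO experiment 2, and of -4.38 in 3 cells of run 1 and 0.54 in 2 cells of run 2 in E4.0 experiment 2. Cells of 1 experiment share preparation, and the part of library quality in the pattern was not tested.

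**Figure D4:**
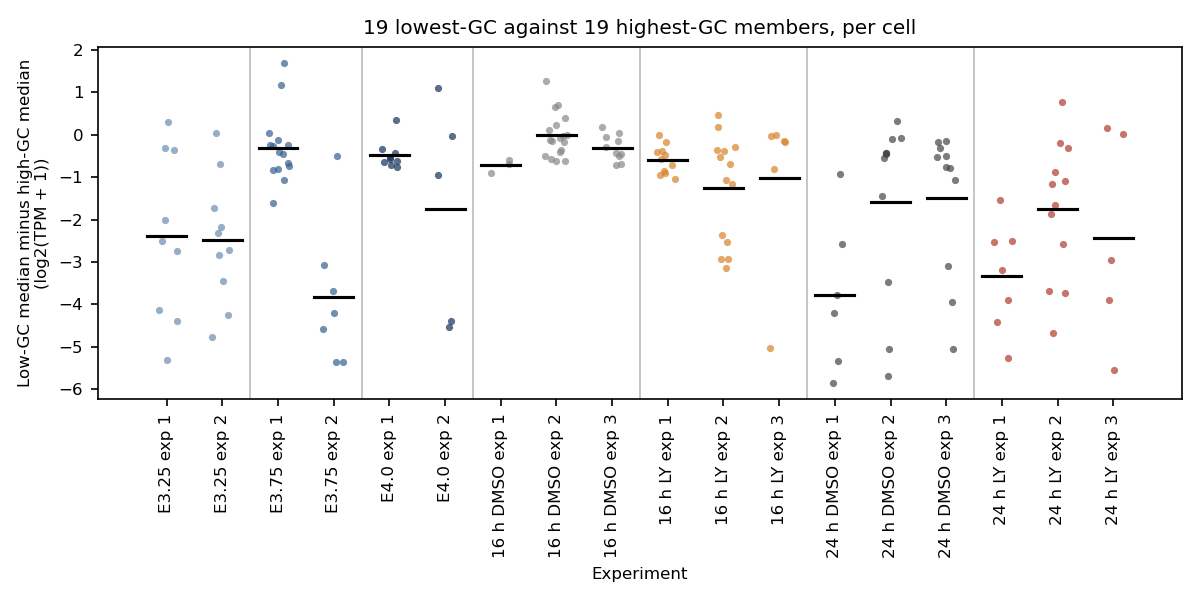
Median log2(TPM + 1) of the 19 members of lowest coding GC minus that of the 19 of highest coding GC (y axis) in each cell (points) of the 18 experiments (x axis), with a black bar at the mean over cells. Cells of 16 h DMSO and of the first E3.75 and E4.0 experiments sit near 0, and other experiments hold cells down to -5.85.

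Changes with embryonic age were asked of the fresh stages. No member passed an adjusted p of 0.05 in limma's moderated test over 11680 genes between any pair of stages. Of all genes tested, 0% passed for E3.75 against E3.25, 1.41% for E4.0 against E3.75 and 1.67% for E4.0 against E3.25. The lowest adjusted p of a member in the limma fit was 1 for the first, 0.766 for the second and 0.252 for the third of these comparisons. At an unadjusted p under 0.05 there were 8 of 76 members for E3.75 against E3.25 (all genes 4.59%), 0 for E4.0 against E3.75 (9.49%) and 7 for E4.0 against E3.25 (12.9%). The counts against E3.25 turned on single experiments, being 0 for E3.75 (2.9%) and 1 for E4.0 (8.22%) without E3.25 experiment 2, and 34 (7.39%) and 40 (13.3%) without E3.25 experiment 1.

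The differences of the members between E3.75 and E3.25 were above 0 for 64 of 76 (all genes 44%), with a median of 0.76 against -0.09 for all genes. The largest were those of Rpl37a (2.58 ± 1.14, SE), Rps21 (2.39 ± 0.99) and Rpl37 (2.38 ± 1.13), and the smallest those of Rpl13 (-0.66 ± 0.56), Rps2 (-0.65 ± 0.51) and Rpl29 (-0.58 ± 0.63). Rpl37a was at 10.5 and 6.56 at E3.25 and at 11.2 and 11.1 at E3.75, so its difference came mostly from the second E3.25 experiment. All E3.75 experiments were above all E3.25 ones for 11 members (14.5%, against 11% of all genes) and below them for 1, Rps2 (1.32%, against 19.7%). Without E3.25 experiment 2 the median difference was -0.02. Without E3.25 experiment 1 it was 1.59 and 2 members, Rpl35 among them, passed the threshold (all genes 0.0771%). In both cases E3.25 is 1 experiment, which the fit assumes to vary like the other groups.

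Between E4.0 and E3.75 the members were evenly split, with 38 of 76 above 0 (all genes 67.5%) and a median of -0.00 against 0.29. The largest differences were those of Rpl7 (2.14 ± 1.53), Rps27 (2.13 ± 1.67) and Rps25 (1.57 ± 1.25), and the smallest those of Rps29 (-0.95 ± 0.95), Rpl38 (-0.75 ± 0.64) and Rpl37a (-0.69 ± 1.14). Rpl7, at 11.4 and 5.25 at E3.75 and 11.9 and 9.06 at E4.0, overlapped between the stages. Its difference was -0.94 without E3.75 experiment 2. The experiments did not overlap for 6 members that were above (7.89%, all genes 27.9%), among them Rpsa and Rplp0, and 2 that were below (2.63%, all genes 8.27%), Rpl13a and Rpl31.

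Over the whole interval, E4.0 against E3.25, 63 of 76 members were above 0 (all genes 60.7%), with a median of 0.95 against 0.20. The largest differences were those of Rps27 (3.06 ± 1.67), Rpl36a (2.93 ± 1.61) and Rps24 (2.92 ± 1.31), the last a gene whose loss causes Diamond-Blackfan anaemia in humans. The smallest were those of Rpl13 (-1.03 ± 0.56), Rps2 (-0.84 ± 0.51) and Rpl29 (-0.83 ± 0.63). Rps24 was at 8.83 and 6.06 at E3.25 and at 11.3 and 9.40 at E4.0, which do not overlap. Such a gap was found above for 20 members (26.3%, all genes 26.4%) and below for 5 (6.58%, all genes 15.2%), Rpl10a, Rpl13, Rpl13a, Rps10 and Rps2. The median was -0.03 without E3.25 experiment 2, and without E3.25 experiment 1 the number past the threshold was 4 (all genes 1.09%), among them Rpl35, Rps12 and Rps18, again with E3.25 as 1 experiment. In cells of sequencing run 2 alone 10 members passed (all genes 3.29%), and in those of run 1 alone none (all genes 0.103%).

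The effect of the PI3K inhibitor was measured against DMSO of the same culture time. No member passed the threshold at 16 h or 24 h, nor in the test of the difference between the times, and 0% of all genes did in each of these limma fits. The lowest adjusted p of a member in limma was 0.855 at 16 h, 0.899 at 24 h and 1 for the difference between them. At an unadjusted p under 0.05 there were 0 members at 16 h (all genes 5.49%), 6 at 24 h (5.27%) and 0 for the difference (2.49%). With the date as a block, which pairs the arms, these counts were 0 (all genes 12.1%), 22 (11.4%) and 7 (6.05%), with none past the adjusted threshold. Without 24 h LY experiment 1 or 24 h DMSO experiment 2 the unblocked count at 24 h was 1 (2.72% and 3.55%), and without LY experiment 2 or 3 it was 13 (8.9% and 5.25%). SEs of the members' differences at each time ranged from 0.36 to 1.39, with a median of 0.54. They rest on a spread pooled over all 7 groups, not on the arms alone, so they are the same at both times. The median SD of a member between experiments was 0.37 and 0.29 in 16 h DMSO and LY, and 0.50 and 0.77 in 24 h DMSO and LY. Even the largest differences at 24 h, those of Rps24 (-1.98) and Rpl21 (-1.97), did not pass the adjusted threshold. The lack of calls therefore leaves room for changes of 1 log2 unit or more.

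At 16 h the members' differences were centred slightly above 0, with 44 of 76 above it (all genes 23.4%) and a median of 0.11 against -0.33 for all genes. The value for all genes depended on the scaling, at -0.01 with genes detected as a covariate and 0.01 with quantile normalization, where the members' median was 0.15 and 0.13. The largest were those of Rpl12 (0.63 ± 0.41), which sits at the foot of the elongation factor stalk, Rpl13 (0.60 ± 0.46) and Rpl36 (0.56 ± 0.50). The smallest were those of Rps15a (-0.92 ± 1.19), Rpl5 (-0.72 ± 0.91) and Rpl7 (-0.71 ± 1.25). Rpl12 was at 11.4, 11.6 and 12.1 with DMSO and 12.001, 12.5 and 12.5 with LY, and the lowest LY value lay below the highest DMSO one. All LY experiments were above all DMSO ones for 4 members (5.26%, all genes 1.35%), among them Rpl13, Rps15 and Rpsa, and below them for 2 (2.63%, all genes 8.84%), Rpl22 and Rpl37.

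On the 3 dates the median LY minus DMSO difference of the members at 16 h was 0.15, 0.12 and -0.04, against -0.50, -0.21 and -0.25 over all genes. LY was higher on every date for 22 of 76 members, 28.9% against 5.34% of all genes, and lower on every date for 7, 9.21% against 35.7% of all genes. Among the 7 were Rpl22, Rpl37, Rpl4, Rps3, Rps4x and Rps6. The 22 included the stalk proteins Rpl12, Rplp1 and Rplp2, and Rpl10a, Rpl13, Rpl29, Rps2, Rps10 and Rps13. Of the members just named, all but Rplp1 and Rplp2 had a negative r with the other members. Every other member of the 22 had a positive r, among them Rps18 (0.90) and Rpl9 (0.89). The number of genes detected per cell differed by -1692, -772 and -1294 (LY minus DMSO) on the 3 dates, and the part of this in the members' values was not tested.

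At 24 h the differences were mostly below 0, with 12 of 76 above it (all genes 32.6%) and a median of -0.66 against -0.20. The smallest were those of Rps24 (-1.98 ± 1.07), Rpl21 (-1.97 ± 0.77) and Rps28 (-1.82 ± 0.88), and the largest those of Rpl39 (0.69 ± 1.39), Rpl13a (0.52 ± 0.38) and Rpl13 (0.43 ± 0.46). Rpl21 was at 10.6, 10.9 and 9.99 with DMSO and 6.17, 10.1 and 9.30 with LY. Its low LY mean came mainly from experiment 1, and the second LY experiment lay above the lowest DMSO one. No member had all LY experiments above all DMSO ones (0%, all genes 2.26%), and 8 had them all below (10.5%, all genes 8.64%), among them Rpl17, Rpl27, Rpl3, Rpl38, Rps16, Rps18 and Rps19.

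By date, the members' median at 24 h was -1.30, -0.46 and -0.05, against -0.17, -0.00 and -0.39 over all genes. LY was lower on every date for 27 members, 35.5% against 22.4% of all genes, and higher on every date for 5, 6.58% against 6.33%. The 5 were Rpl10a, Rpl12, Rpl13a, Rps13 and Rps2. Without 24 h LY experiment 1, which had the fewest genes detected per cell of all experiments (4556), the median over the members was -0.17. The difference between the LY effects at 24 h and 16 h had a median of -0.63 over the members against 0.10 for all genes, with 12 of 76 above 0 (all genes 56.3%), and a median of -0.33 without that experiment.

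Rps6 was among the members lower with LY on every date at both times. In 16 h DMSO it was at 11.8, 11.7 and 11.6 and in 16 h LY at 11.7, 11.3 and 10.6, which overlap by a small margin. In 24 h DMSO it was at 8.76, 10.7 and 10.9 and in 24 h LY at 7.82, 9.92 and 9.84, which overlap. The difference was -0.52 ± 0.86 (limma adjusted p = 0.923) at 16 h and -0.91 ± 0.86 (limma adjusted p = 0.935) at 24 h. It was 0.07 at 16 h with genes detected as a covariate, and 0.23 at 24 h in cells of run 2 alone, so its sign was not kept.

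The other members fixed by role had LY differences at 16 h and 24 h that did not pass the threshold. Those of Rpsa were 0.48 ± 0.43 and -0.69 ± 0.43, of Rplp0 0.11 ± 0.46 and -0.63 ± 0.46, and of Rpl11 0.19 ± 0.56 and -0.73 ± 0.56. Those of Rpl5 were -0.72 ± 0.91 and -0.27 ± 0.91, of Rps4x -0.54 ± 0.73 and 0.30 ± 0.73, and of Rps27a -0.19 ± 0.75 and -0.88 ± 0.75. Those of Rpl10, Rpl41 and Rpl38 were 0.30, 0.17 and 0.13 at 16 h and -0.21, -0.45 and -0.80 at 24 h.

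The members were also divided by the pyrimidine run at the annotated start. For the 13 with a run, the median LY difference was 0.03 at 16 h, with 7 above 0, and -0.80 at 24 h, with 1 above 0. The 43 with no run in the window had medians of 0.16 (26 above 0) and -0.44 (10 above 0), and the 20 with no window read medians of 0.01 (11 above 0) and -0.78 (1 above 0). The median SD over experiments was 0.98 in the first set, 0.68 in the second and 0.77 in the third. The SDs ranged from 0.25 (Rpl15) to 2.28 (Rps15a) in the first set and from 0.29 to 2.44 in the second.

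The LY differences at 16 h followed coding GC, and those at 24 h did so weakly. The Spearman correlation across the 76 members was 0.61 at 16 h (other genes 0.17) and 0.15 at 24 h (other genes -0.00). At 16 h the median difference was -0.22 for the 19 low-GC members, of which 5 were above 0, and 0.38 for the 19 high-GC ones, of which 17 were. At 24 h these medians were -0.81 and -0.50. On the first 16 h date the order was reversed, with 0.37 for low-GC and 0.07 for high-GC members, against -0.48 and 0.69 on the second and -0.41 and 0.31 on the third.

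**Figure D5:**
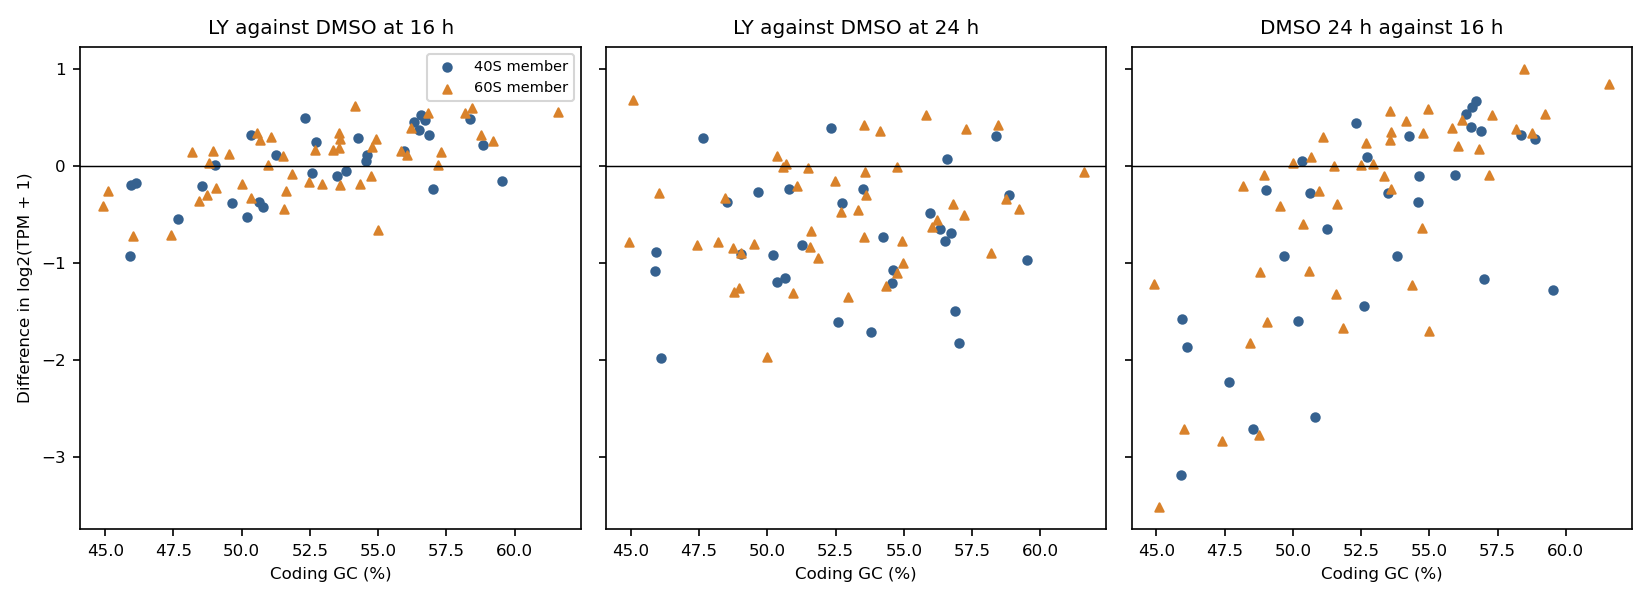
Difference of each member in log2(TPM + 1) (y axis) against its coding GC (x axis, %) for LY against DMSO at 16 h (left) and 24 h (middle) and for 24 h against 16 h of DMSO (right), with 40S members as circles and 60S members as triangles. Differences lean upward with GC at 16 h (correlation 0.61) and most between the culture times (0.69), and at 24 h most points lie below 0 at any GC.

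Culture time was compared between the DMSO groups. No member passed the threshold (lowest limma adjusted p = 0.344), and 0.00856% of all genes did. At an unadjusted p under 0.05 there were 11 of 76 members (all genes 10.9%), but 0 with genes detected as a covariate (all genes 5.9%). There were 34 of 76 members above 0 at 24 h against 16 h (all genes 30.2%), with a median of -0.10 against -0.29, which was 0.18 with quantile normalization. The smallest differences were those of Rpl39 (-3.52 ± 1.39), Rps15a (-3.18 ± 1.19) and Rpl7 (-2.83 ± 1.25), and the largest those of Rpl13 (1.00 ± 0.46), Rpl36 (0.85 ± 0.50) and Rpsa (0.67 ± 0.43).

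Rpl39 was at 10.2, 11.0 and 11.2 in 16 h DMSO and at 3.24, 9.09 and 9.54 in 24 h DMSO, and the groups did not overlap. All 24 h experiments were below all 16 h ones for 19 members (25%, all genes 14.3%), among them Rps6, Rpl5, Rps4x and Rps27a. They were above them for 5 (6.58%, all genes 2.16%), Rpl13, Rpl19, Rpl29, Rpl36 and Rps10. The Spearman correlation with coding GC was 0.69 (other genes 0.35), and the median difference was -1.61 for the low-GC members and 0.39 for the high-GC ones. The 24 h experiments were unlike in this. The median deviation of the low-GC members from their own means was -1.52, 0.40 and 0.07 in 24 h DMSO, against 0.87, 1.37 and 1.47 in 16 h DMSO.

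Cultured DMSO embryos were compared with the fresh stage of nearest age. For 16 h DMSO against E3.25 no member passed the threshold (lowest limma adjusted p = 0.171), and 0.0514% of all genes did. At an unadjusted p under 0.05 there were 35 of 76 members (all genes 13.7%), but 3 without E3.25 experiment 2 (all genes 6.82%) and 14 with genes detected as a covariate (all genes 10%). There were 66 of 76 members above 0 (all genes 66.6%), with a median of 1.12 against 0.32. The largest differences were those of Rps15a (4.71 ± 1.33), Rpl36a (4.21 ± 1.47) and Rpl39 (4.02 ± 1.55), and the smallest those of Rpl13 (-1.42 ± 0.51), Rpl29 (-1.25 ± 0.58) and Rpl10a (-0.89 ± 0.49).

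Rpl36a was at 9.58 and 5.75 at E3.25 and at 11.3, 11.96 and 12.4 in 16 h DMSO, with no overlap. The 16 h experiments were all above the E3.25 ones for 33 members (43.4%, all genes 23.2%) and all below for 5 (6.58%, all genes 6.93%), Rpl10a, Rpl13, Rpl29, Rps10 and Rps13. The median difference was 2.71 for the low-GC members, all 19 above 0, and 0.52 for the high-GC ones. Without E3.25 experiment 2 the median over all members was 0.26, and without E3.25 experiment 1 it was 2.02 and 8 members passed (all genes 0.445%), each time with E3.25 as 1 experiment. With only these 2 groups in the fit 4 members passed (all genes 0.42%), Rpl39, Rpl7, Rps15a and Rps27, and in cells of run 2 alone 5 did (all genes 0.205%).

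For 24 h DMSO against E3.75 the members were near 0. No member passed (lowest limma adjusted p = 1), nor did any gene (0%), and 0 members had an unadjusted p under 0.05 (all genes 3.17%). There were 47 of 76 above 0 (all genes 58.9%), and the median was 0.10, as for all genes. The largest differences were those of Rplp0 (0.73 ± 0.52), Rpsa (0.73 ± 0.48) and Rpl36 (0.72 ± 0.56), and the smallest those of Rpl23 (-1.07 ± 0.87), Rpl37a (-1.05 ± 1.04) and Rps29 (-0.93 ± 0.87). Rplp0 was at 11.4 and 11.4 at E3.75 and at 12.8, 11.8 and 11.7 in 24 h DMSO. Such a gap was seen above for Rplp0, Rpsa and Rpl8 (3.95%, all genes 12.5%) and below for Rpl37a (1.32%, all genes 5.49%). The median was 0.51 in cells of run 1 alone and -0.55 in those of run 2 alone.

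The comparisons were also summarised by subunit and position in the ribosome. For LY at 24 h the median was -0.79 over 30 proteins of the 40S (4 above 0) and -0.48 over 46 of the 60S (8 above 0), and at 16 h 0.03 and 0.12. The 4 proteins of the elongation factor stalk (Rplp0, Rplp1, Rplp2 and Rpl12) had a median of 0.55 at 16 h, all 4 above 0, and of -0.51 at 24 h, with only Rpl12 above 0. For 16 h DMSO against E3.25 the medians were 1.56 over the 40S and 0.96 over the 60S.

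Of 8 tested paralogs of members none passed the threshold in any comparison. Rpl22l1, a paralog of Rpl22, was at 3.86 and 2.92 at E3.25 and 7.16, 8.28 and 7.48 in 16 h DMSO (difference 4.25 ± 1.36, limma adjusted p = 0.232). The groups did not overlap.

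Other genes of ribosome supply and its control were counted in the same fits. Of 19 other TOP mRNAs, 1 passed the threshold in any comparison, Vim, an intermediate filament gene, at 0.00 and 0.09 at E3.25 and 1.24 and 1.83 at E4.0 (difference 1.49 ± 0.38, limma adjusted p = 0.0444). With only the groups compared in the fit no gene passed there, Vim included. None passed in any comparison among 57 genes of ribosome biogenesis, 12 of RNA polymerase I, 25 of the mTORC1 and S6 kinase pathway, 9 of the MYC family, 35 translation factors and 8 of the MDM2 and p53 response to free ribosomal proteins. With LY at 16 h, 2 of 57 biogenesis genes were above 0 (median -0.71), 0 of 12 of RNA polymerase I (median -0.58) and 5 of 35 translation factors (median -0.42). Of all genes 23.4% were above 0, with a median of -0.33, and the members' median was 0.11. The all-gene median was -0.01 with genes detected as a covariate, and these lists were summarised only without it. At 24 h the medians of the lists, in the same order, were -0.50, -0.25 and 0.16. The extremes at 16 h were Nip7 (-1.63) and Gnl2 (0.07) in biogenesis, Taf1b (-1.80) in RNA polymerase I, and Ddit4 (-1.55) and Tsc2 (1.07) in the mTORC1 list. The LARP1 gene itself differed by -0.47 ± 0.63 at 16 h and 0.76 ± 0.63 at 24 h with LY.

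Some markers of cell identity moved with embryonic age, while no member passed the test. From E3.75 to E4.0, 7 of 23 primitive endoderm markers and 3 of 17 epiblast markers rose in the limma fit (all genes past the threshold 1.41%). From E3.25 to E4.0, 9 and 3 did (all genes 1.67%). These calls rest on the spread shared by all 7 groups, since no gene passed in either comparison with only the groups compared in the fit. From E3.25 to E4.0, 22 of 23 primitive endoderm and 13 of 17 epiblast markers were above 0 (all genes 60.7%). Spic (-2.03), Nanog (-1.82) and Gata6 (-0.38) were among those below it, and none of these passed. No trophectoderm marker of 14 passed in any comparison. With LY none of the 3 lists had a gene past the threshold, with medians of -0.29, -0.43 and -0.73 (epiblast, primitive endoderm, trophectoderm) at 16 h and -0.29, -0.35 and -0.02 at 24 h, and their part in the members' values was not tested.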

How the data were processed

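The authors deposited 1 table of TPM values per gene for single cells. RSEM 1.3.3, STAR 2.7.9a, cutadapt 2.9 and the build mm10 are named, per the submitters' processing notes. Which gene annotation they used is not given here. Per the labels' protocols, cDNA was primed at the 3′ end, amplified, selected above a minimum size and tagmented, so TPM is biased along transcripts.

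The design text states 184 cells, the labels list 186, and 170 columns matched a label by title. The other 16 samples were not analysed here. At E3.25, 1 pair of near-identically titled columns (r = 0.824, above 0.783 with any other cell) was averaged, and another such pair in 24 h LY experiment 1 (r = 0.594, below 0.724 with another cell) was kept as 2 cells. All cells were kept and doublets were not called. Spike-in rows (92 of 55513) were left out. They held at most 0.296% of TPM in a cell and were not used to estimate the RNA per cell.

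Replicates were experiments (cells of 1 group and date), as means over cells of log2(TPM + 1), so p-values measure the spread between dates. In limma this spread, and each SE, is pooled over all groups of a fit, also where groups differ in it. Differences are on the log2(TPM + 1) scale, which understates changes of low genes. Genes with a TPM of 1 or more in 25% of the cells of a group were kept (11680). One limma fit (version 3.58.1, R 4.3.3, with trend) took in the 18 experiments and left 11 residual degrees of freedom. P-values were adjusted over all genes by Benjamini-Hochberg, with a threshold of 0.05, and the script was tested on simulated data. Shares of TPM were compared by two-sided exact permutation. The LY and DMSO arms carry the same dates, which pair them. Deviations of same-date arms correlated at 0.393, 0.121 and 0.317 at 16 h and 0.231, 0.120 and 0.073 at 24 h. Coding GC is from GENCODE M21.

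Named by rule were the 3 largest and 3 smallest differences of each comparison, members fixed by role, the 5 most and least alike members and the list genes that passed or had the largest changes; other members are named where a count of them is given, after their values were seen. Members and lists were chosen with earlier results of these data known. Alternatives were pseudocounts of 10 and 0.1, no filter, log2 of mean TPM, the median cell for shares, quantile normalization, rescaling without mitochondrial genes and without the members, genes detected as a covariate, only the groups compared, the date as a block, each sequencing run alone, pseudogene rows added to their members, and leaving out each experiment. Results of some genes are not reported here.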

Additional observations from a re-analysis of the deposited data

How the results depend on the processing

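The count of members past the threshold was 0 in every comparison, so that it stayed 0 under most alternatives says little about stability; it was above 0 in the 6 cases given below. Of the medians 155 stayed within the replicate spread and 17 moved, and of the values of named members 1044 kept their sign and call, 6 passed the threshold and 22 changed sign. With the date as a replicate block no call changed, and the medians (0.11 at 16 h, -0.66 at 24 h and -0.63 for the difference) are the same by construction. The members at an unadjusted p under 0.05 went from 6 to 22 at 24 h and from 0 to 7 for the difference. Quantile normalization brought the median of all genes to between -0.04 and 0.05 in every comparison. The cause of the changes below was not tested.

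Leaving out 1 experiment moved the count past the threshold from 0 to 0–2 for E3.75 against E3.25, 0–4 for E4.0 against E3.25 and 0–8 for 16 h DMSO against E3.25. The median difference ranged from -0.017 to 1.59, from -0.034 to 1.69 and from 0.26 to 2.02 in these comparisons, from -0.87 to -0.17 for LY at 24 h and from -0.87 to -0.33 for the difference between LY effects. Named members that changed sign ranged from -1.35 to 0.033 (Rpl13) and -1.37 to 0.21 (Rpl29) for E3.75 against E3.25, and from -1.50 to 0.11 (Rpl37a), -0.78 to 5.05 (Rps27) and -0.94 to 5.21 (Rpl7) for E4.0 against E3.75. They ranged from -0.0026 to 0.70 (Rpl13) and -1.34 to 1.81 (Rpl39) for LY at 24 h, and from -0.21 to 1.12 (Rpl5), -0.0084 to 1.53 (Rps4x) and -1.09 to 2.07 (Rpl39) for the difference between LY effects. The members' share of TPM differed by -0.979 to 12.1 points for E3.75 against E3.25, by -4.82 to 8.26 for E4.0 against E3.25 and by -1.81 to 11.3 for 16 h DMSO against E3.25. Taking the median cell of each experiment, 24 h DMSO minus E3.75 was -1.41 points in place of 1.73.

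Without E3.25 experiment 2 and 24 h LY experiment 1 together, a choice made after seeing the data, the medians were -0.034 for E4.0 against E3.25, -0.17 for LY at 24 h, -0.33 for the difference between LY effects and 0.26 for 16 h DMSO against E3.25, Rpl29 was at 0.21 for E3.75 against E3.25 and Rpl13 at -0.0026 for LY at 24 h. In cells of run 2 the median was -0.37 for E4.0 against E3.75, -0.44 for DMSO 24 h against 16 h and -0.55 for 24 h DMSO against E3.75. In the same cells 10 members passed for E4.0 against E3.25 and 5 for 16 h DMSO against E3.25, and Rps6 was at 0.23 for LY at 24 h. In cells of run 1 the median was -0.93 for the difference between LY effects, 0.31 for DMSO 24 h against 16 h and 0.51 for 24 h DMSO against E3.75. There Rpl39 was at -0.19 for LY at 24 h, and Rpl5 (-0.44), Rps4x (-0.14) and Rpl39 (-0.16) changed sign for the difference between LY effects, as did Rpl5 with log2 of mean TPM (-0.30). With genes detected as a covariate Rpl7 (0.24) and Rps6 (0.070) changed sign for LY at 16 h. With quantile normalization the median for DMSO 24 h against 16 h was 0.18, and with only the groups compared in the fit 4 members passed for 16 h DMSO against E3.25.

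The main limits are 2 or 3 experiments a group, an unknown depth per cell, 3 cells in 16 h DMSO experiment 1, and the scale. On it, with the spike-ins left out, a gain of other RNA cannot be told apart from a loss of the members. Reads shared with pseudogenes make single members uncertain. Summing the named pseudogene rows into their members changed no call, which says little, since no member was called without them.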
